A study of Homo sapiens with 48 samples.

Results

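The comparison described here asks what EGF (epidermal growth factor) adds to the transcriptome of cells that already receive angiotensin II (AII), after 6 h. It sets 4 libraries of cells given 1 nM AII together with 10 µg/L EGF (AII + EGF) against 5 libraries of cells given 1 nM AII without EGF (AII), so 9 of the 48 libraries of the series entered. All cells were HEK293, a human embryonic kidney line, carrying a plasmid for the type 1 angiotensin II receptor (AT1R, gene AGTR1). They came from 1 clone, named B6, selected with puromycin in the presence of the receptor blocker losartan and then stimulated in medium without serum. Both groups received AII, so the comparison isolates the addition of EGF, and control cells without stimulus and cells given EGF alone are used below only to set this addition beside the EGF effect without AII. The study's materials include an AT1R plasmid in a pCMV vector, named for the CMV promoter, but the methods do not state which plasmid the clone carries, and a second clone was not analysed here. The labels do not say whether libraries of a group came from separate cultures, so the p-values measure the spread between these libraries, which may be technical.

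EGF binds the EGF receptor (EGFR), a tyrosine kinase that activates Ras and the MEK-ERK kinase cascade as well as PI3 kinase and AKT. ERK phosphorylates ternary complex factors that sit with serum response factor (SRF) on CArG boxes of immediate early genes, and the EGR and FOS-JUN (AP-1) factors made from these genes act on a later set of target genes. ERK also relieves repression by the HMG box protein CIC, whose known targets include the PEA3 factors ETV4 and ETV5, and it induces its own inhibitors of the Sprouty, SPRED and DUSP families. AT1R couples to Gq, phospholipase C, calcium and protein kinase C, and thereby also reaches ERK and the actin-MRTF branch of SRF.

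The promoters of 5 genes described below are shown because they hold, in the same short window, the letters known to bind these factors. They are the 250 bases before the transcription start, 5′ to 3′ on the strand of the gene, from RefSeq on GRCh38.p14. Capitals mark motif matches. EGR1 lies at chr5:138465229-138465478 on the plus strand and has a pair of CArG boxes. EGR2 lies at chr10:62816367-62816616 on the minus strand, before one of its alternative starts, and has 1 CArG box. TGFB1 lies at chr19:41353923-41354172 on the minus strand and has EGR sites, read on the other strand, at -136 and -80 from the start. IL11 lies at chr19:55370464-55370713 on the minus strand and has an AP-1 site at -96 and a CIC octamer at -122. VGF lies at chr7:101165570-101165819 on the minus strand and has a cAMP response element (CRE) at -79, a CIC octamer at -90 and a run of overlapping octamers further upstream.
EGR1: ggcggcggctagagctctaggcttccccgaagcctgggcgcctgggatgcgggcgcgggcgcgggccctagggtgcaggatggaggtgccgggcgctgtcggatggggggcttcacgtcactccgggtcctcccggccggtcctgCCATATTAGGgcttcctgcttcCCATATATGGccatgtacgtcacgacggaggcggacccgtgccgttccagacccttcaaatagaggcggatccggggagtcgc
EGR2: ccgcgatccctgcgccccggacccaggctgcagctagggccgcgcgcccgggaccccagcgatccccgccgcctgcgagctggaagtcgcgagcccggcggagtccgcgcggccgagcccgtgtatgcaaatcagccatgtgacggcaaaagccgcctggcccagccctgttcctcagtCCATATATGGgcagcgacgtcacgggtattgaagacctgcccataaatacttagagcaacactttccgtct
TGFB1: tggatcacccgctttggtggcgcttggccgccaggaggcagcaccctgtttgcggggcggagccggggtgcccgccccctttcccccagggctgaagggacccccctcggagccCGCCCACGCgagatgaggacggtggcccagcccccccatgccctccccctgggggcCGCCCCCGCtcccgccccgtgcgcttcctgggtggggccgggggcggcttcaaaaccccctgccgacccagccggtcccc
IL11: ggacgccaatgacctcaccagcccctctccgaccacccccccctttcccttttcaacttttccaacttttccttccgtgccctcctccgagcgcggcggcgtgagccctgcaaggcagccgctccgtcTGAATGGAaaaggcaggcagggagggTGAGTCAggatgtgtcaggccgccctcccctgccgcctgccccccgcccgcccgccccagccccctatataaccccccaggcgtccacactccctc
VGF: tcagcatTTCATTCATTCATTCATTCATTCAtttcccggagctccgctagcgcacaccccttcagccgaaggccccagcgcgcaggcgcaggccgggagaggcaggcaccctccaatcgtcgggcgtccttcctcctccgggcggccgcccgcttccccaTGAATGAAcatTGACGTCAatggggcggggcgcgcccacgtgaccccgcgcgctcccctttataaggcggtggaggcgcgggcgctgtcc

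The 9 libraries held 17.8 to 26.5 M counts, with a mean of 21.3 ± 1.37 M under AII + EGF (SD, n = 4) and 20.7 ± 3.53 M under AII (SD, n = 5), with p = 0.810 for the difference in a two-sided exact permutation test over 126 splits. The chi-square statistic of 2 libraries' counts, divided by its degrees of freedom, ranged from 2.02 to 44.3 for pairs within a group and from 45.04 to 89.3 for pairs across groups. The first principal component carried 52.0% of the variance and separated the groups, and the second, with 19.4%, separated the 4 libraries with the first titles (called title run 1, AII replicates 1 and 2 and AII + EGF replicates 1 and 2) from the other 5. The titles number the libraries in consecutive runs that hold all conditions of a time point, and the labels do not say what a run is. Within a group, libraries of the same run lay closest, at 2.02 (AII replicates 1 and 2), 6.04 (AII replicates 3 and 4) and 6.15 (AII + EGF replicates 1 and 2). AII replicates 1 and 2 lay at 34.8 to 44.3 from AII replicates 3 to 5. The main fit had no term for the run, so its p-values take libraries of the same run as separate replicates. With the run as a block 1689 genes were called. Of the 12 libraries labelled with these 2 groups, 3 were left out. AII + EGF replicate 4 agreed within sampling noise with a library labelled EGF 6 h (0.401 on the same statistic). On a scale from the 5 AII libraries (0) to the 4 AII + EGF libraries (1), over the called genes, it lay at 0.712. The library labelled AII replicate 6 lay at 0.858 and the library labelled AII + EGF replicate 6 at -0.00518, each next to the libraries of the other group. These 3 were set aside because of their expression, which bears directly on the outcome. With all 12 labelled libraries edgeR called 0 genes, 3791 had an unadjusted p under 0.05 and DESeq2 called 18, while adding only AII + EGF replicate 4 left 1330 calls.

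A gene counted as called if its Benjamini-Hochberg adjusted p from the quasi-likelihood test of edgeR was below 0.01, its difference reached 1.5-fold and its mean in the higher group was above 5 CPM, the read count normalised to library size with TMM factors. Of 16778 genes tested, 1558 were called, which is 9.29%. Of these, 790 were higher under AII + EGF (4.71% of those tested) and 768 lower (4.58%). The groups did not overlap for 1532 of the called genes (98.3%), against 32.2% of all genes tested. At least 4-fold differences were found for 58 genes that rose and 5 that fell, so the large effects were mostly rises, while the median called rise was 0.84 and the median called fall -0.76 on the log2 scale. Scaling to library totals without factors moved the split to 568 higher and 1111 lower (33.8% higher) and the median of all genes from -0.02 to -0.12. Protein coding genes made up 1452 of the calls (93.2%), and of the 74 long non-coding RNAs called 25 rose and 49 fell. The 1558 called genes had the same direction in each of title runs 1, 4 and 5, all of which entered the fit that selected them, so this is only a description.

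**Figure D1:**
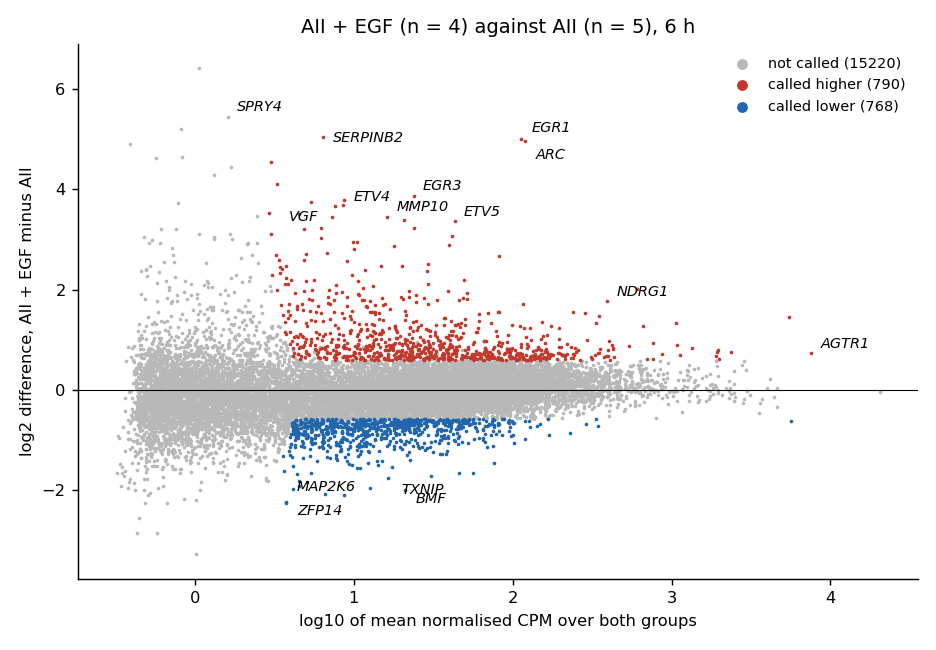
Log2 difference (AII + EGF minus AII, 6 h) against the log10 of the mean normalised CPM for the 16778 genes tested, each point 1 gene. Red points are the 790 genes called higher and blue points the 768 called lower, and the called rises reach 5.05 at SERPINB2 while the called falls end at -2.26 at ZFP14.

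Immediate early genes of the SRF and ternary complex factor type mostly rose. Of 25 tested members, 17 rose and none fell, with a median log2 difference of 0.99 against -0.02 over all genes tested. Of all genes tested, 4.71% were called higher and 4.58% lower, the shares to set beside the counts of this and the following lists. EGR1, a zinc finger transcription factor (ENSG00000120738, chromosome 5, 138465479 to 138469303 on GRCh38.p14), stood at 6.43, 5.97, 6.98, 8.23 and 6.28 CPM in the AII libraries. It stood at 180, 201, 229 and 260 CPM in the AII + EGF libraries. The lowest AII + EGF library lay far above the highest AII library, and the log2 difference was 5.003 ± 0.13 (SE, adjusted p = 5.30e-11). ARC, which encodes an activity-regulated protein known from synapses, had 6.13 to 9.04 CPM under AII and 212 to 253 CPM under AII + EGF, a log2 difference of 4.97 ± 0.12. EGR3 rose from 3.04 ± 0.516 to 44.6 ± 1.51 CPM (SD, n = 5 and 4) and EGR2 from 0.719 ± 0.0977 to 8.30 ± 0.803 CPM. NAB2, which encodes a corepressor that binds EGR proteins, rose by 2.19 ± 0.09 log2 units, from 17.7 to 80.8 CPM. The promoters of EGR1 and EGR2 are those printed above with CArG boxes. The windows of NAB2 and of TGFB1, described next, held EGR sites but no CArG box.

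FOS, an AP-1 subunit, was at 2.63, 2.93, 3.67, 3.56 and 3.33 CPM under AII and at 14.03, 13.3, 10.04 and 11.6 CPM under AII + EGF, with a log2 difference of 1.92 ± 0.14. Its groups did not overlap, and its log2 difference was smaller than that of EGR1. TGFB1, the gene of the cytokine TGF-beta 1, rose from 21.2 ± 3.67 to 75.6 ± 5.06 CPM. The study describes these 6 genes (EGR1, ARC, EGR3, EGR2, FOS and TGFB1) as SRF-responsive or known SRF targets, and it reported their mRNA from these samples. All 6 rising is therefore not independent evidence of their direction. Outside the sequencing, the study reported an effect of both stimuli together on FOS, EGR1, ARC and TGF-beta protein in clones B6 and D5. Other immediate early members rose less, among them the transcription factor genes NR4A1 (0.99), KLF10 (0.67) and IER2 (0.64) and the antiapoptotic gene MCL1 (0.61). SRF itself had 106 CPM under AII and 101 CPM under AII + EGF (log2 -0.07, adjusted p = 0.418), and MYC had 531 and 453 CPM (log2 -0.23, adjusted p = 0.0627).

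Of 15 AP-1 subunits and partners tested, 9 rose and none fell, against 4.71% and 4.58% of all genes tested. The median log2 difference of the list was 0.78. The largest was MAFF, a small MAF protein gene, which went from 2.59 to 15.5 CPM (log2 2.58 ± 0.13). JUNB had 14.5 to 17.5 CPM under AII and 52.7 to 68.1 CPM under AII + EGF (log2 1.96 ± 0.09). BATF3 and FOSL1, genes of further dimer partners, rose by 1.89 and 1.69, FOSL2 by 1.10 and ATF3 by 0.75. JUN, the classical partner of FOS, had 420 and 546 CPM and did not reach the fold minimum (log2 0.38, adjusted p = 9.26e-04). JUND had 143 and 138 CPM.

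Genes that report ERK activity in many cell types followed the same direction with 1 exception. Of 10 tested, 5 rose and 1 fell, and all 10 had an adjusted p under 0.01, as did 25.2% of all genes tested. ETV5, a PEA3 transcription factor gene (ENSG00000244405, chromosome 3, 186046314 to 186109089), was at 8.81, 8.49, 6.83, 9.05 and 5.26 CPM under AII and at 74.4, 80.1, 75.9 and 83.4 CPM under AII + EGF. Its relative ETV4 (ENSG00000175832) was at 1.06, 1.49, 1.26, 1.49 and 0.908 CPM and at 15.1, 16.7, 14.2 and 17.6 CPM. The log2 differences were 3.36 ± 0.13 for ETV5 and 3.69 ± 0.15 for ETV4, with no overlap for either. EPHA2, the gene of an ephrin receptor kinase, rose from 21.6 to 82.0 CPM (log2 1.92 ± 0.09), whereas EPHA4, another ephrin receptor gene, fell from 19.99 to 11.1 CPM (log2 -0.85 ± 0.09). CCND1, which encodes cyclin D1, had 120 and 165 CPM, below the fold minimum at log2 0.46 ± 0.07.

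Genes of a MAPK feedback list, not all of which encode inhibitors of ERK, were partly among the called genes. Of 23 tested, 8 rose and none fell, against 4.71% and 4.58% of all genes tested. The median log2 difference of the list was 0.58. IER3 rose by 2.09 ± 0.14 log2 units, the nuclear ERK phosphatase gene DUSP5 by 1.90 ± 0.12, SPRY2 by 1.57 ± 0.10 and SPRED2 by 1.32 ± 0.07. SPRED2 had 24.1 to 28.3 CPM under AII and 62.5 to 67.5 CPM under AII + EGF. DUSP4, DUSP1, SPRED1 and ERRFI1, the last encoding an inhibitor that binds the EGFR kinase, rose by 1.04, 0.89, 1.30 and 0.83. SPRY4 was at 0.202, 0.0515, 0.0502, 0 and 0.0378 CPM under AII and at 2.97, 3.69, 2.42 and 3.51 CPM under AII + EGF. Its adjusted p was 3.70e-07, but it stayed below 5 CPM and was not called, and with at most 4 counts in an AII library its fold is not well determined. DUSP6, a cytoplasmic ERK phosphatase gene, likewise stayed low, at 0.590 and 2.76 CPM. RGS2, which encodes an inhibitor of Gq, had 7.42 and 4.95 CPM (log2 -0.58, adjusted p = 0.00177), just under the fold minimum. DUSP8, DUSP10 and DUSP16 had log2 differences between -0.01 and 0.07.

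**Figure D2:**
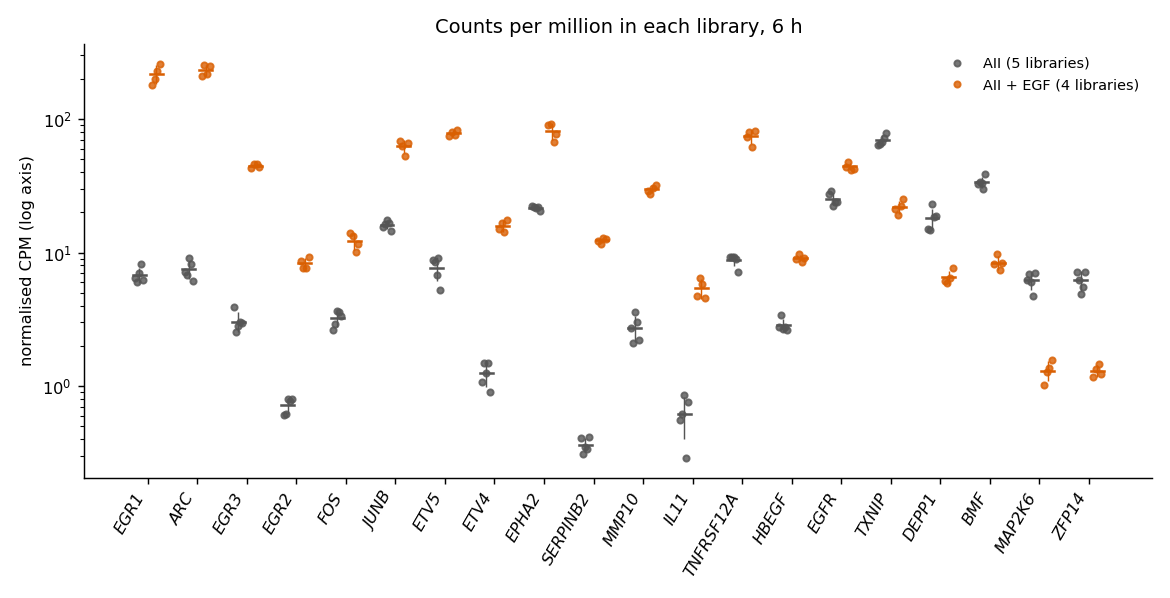
Normalised CPM on a log axis for 20 genes in each of the 5 AII libraries (grey) and the 4 AII + EGF libraries (orange) at 6 h, with the mean as a horizontal line and the SD as a vertical one. For each of the genes plotted the points of the groups do not overlap, from EGR1 (6.78 against 217 CPM) to ZFP14 (6.20 against 1.30 CPM).

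Secreted proteins, proteases and their inhibitors, many of them known AP-1 targets, formed another group. Of 20 tested, 10 rose and 1 fell, against 4.71% and 4.58% of all genes tested, with a median log2 difference of 0.86. SERPINB2, which encodes plasminogen activator inhibitor 2 (ENSG00000197632), was nearly silent under AII, at 0.405, 0.309, 0.352, 0.337 and 0.416 CPM. It reached 12.1, 11.7, 12.96 and 12.6 CPM under AII + EGF, a log2 difference of 5.05 ± 0.14 and the largest among the called genes. The matrix metalloproteinase gene MMP10 rose from 2.73 ± 0.604 to 29.8 ± 2.04 CPM (log2 3.46 ± 0.13). IL11, a cytokine gene whose promoter window with an AP-1 site is printed above, rose from 0.615 ± 0.216 to 5.41 ± 0.925 CPM (log2 3.11 ± 0.23). TNFRSF12A, the gene of the TWEAK receptor, was at 7.19 to 9.31 CPM under AII and at 62.2 to 82.0 CPM under AII + EGF. Smaller rises were found for SERPINE2 (0.93), PLAT (0.87), PLAUR (0.65), TIMP1 (0.63) and LIF (0.63). They are genes of protease inhibitors, a plasminogen activator, the receptor of another plasminogen activator and a cytokine. ITGA2, an integrin gene, fell by 0.70.

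Further large rises belonged to no list. The neurotensin receptor gene NTSR1 had 0.0378 to 0.566 CPM under AII and 8.17, 9.42, 4.09 and 3.13 CPM in AII + EGF replicates 1, 2, 3 and 5. The first pair of these belongs to title run 1, and without that run the mean fell below 5 CPM and the call was lost, although the log2 difference stayed at 3.98. GPR3, a receptor gene that raises cAMP, rose from 1.18 to 16.3 CPM, ISM1, a secreted protein gene, from 0.739 to 9.93 CPM, and TFPI2, a protease inhibitor gene, from 1.12 to 14.1 CPM. SUSD4, a complement regulator gene, rose from 0.466 to 5.396 CPM. VGF, which encodes a secreted neuropeptide precursor, rose from 1.21 ± 0.335 to 13.4 ± 2.76 CPM (log2 3.45 ± 0.20). Among called non-coding or clone-named genes LINC00659 rose most, from 0.237 to 5.80 CPM (log2 4.54), a call that was lost without title run 1 (3.96) and without AII + EGF replicate 2 (4.28). It was followed by KC877982.1 (log2 3.23), AL031058.1 (2.87), CEROX1 (2.28) and AL139385.1 (2.22). Counting by strand was not stated, so reads of overlapping genes cannot be separated for them.

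The receptors and one EGFR ligand moved as well. AGTR1, the gene of the receptor for AII, was at 5568, 5769, 5903, 5819 and 5419 CPM under AII and 9590.4, 9022, 9598 and 9604 CPM under AII + EGF. The log2 difference was 0.73 ± 0.09 (adjusted p = 4.75e-05). Counts of the plasmid copy and of the cell's own gene cannot be told apart. EGFR rose from 25.3 ± 2.76 to 44.1 ± 2.76 CPM (log2 0.80 ± 0.09). HBEGF, which encodes the EGFR ligand HB-EGF, was at 2.78, 3.40, 2.66, 2.79 and 2.65 CPM under AII and at 8.92, 9.68, 8.52 and 9.09 CPM under AII + EGF, a log2 difference of 1.67 ± 0.12. Of 11 EGF family ligands, ERBB receptors and sheddases tested, only EGFR and HBEGF were called, where 9.29% of all genes tested were called. Amphiregulin (AREG) had 0.103 and 1.43 CPM, below the abundance minimum, ERBB2 had 76.7 and 76.5 CPM, and the sheddase gene ADAM17 had 40.01 and 43.6 CPM. Among 18 genes of the angiotensin and Gq pathway AGTR1 rose and AGTRAP, the gene of an AT1R-associated protein, fell (log2 -0.71). GNAQ, PLCB3 and RCAN1 stayed under the fold minimum. The share called in this list was near the 9.29% called over all genes tested, and its median was -0.07. The MRTF-dependent cytoskeletal SRF targets had 3 rises and 2 falls among 30 tested and a median of 0.20. CCN1, a matricellular protein gene, rose by 0.78, the actin gene ACTG1 by 0.75 and CCN2 by 0.71. The tropomyosin gene TPM1 fell by 0.89, and ACTA2, smooth muscle actin, by 0.78, a call that was lost in 3 of the 9 fits that left out 1 library, while ACTB had a log2 difference of -0.03.

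Glucose uptake and glycolysis genes respond to hypoxia-inducible factor and growth factors. They had 11 rises and no fall among 32 tested, against 4.71% and 4.58% of all genes tested, with a median of 0.43. The glucose transporter gene SLC2A3 rose from 9.01 ± 1.31 to 31.6 ± 3.98 CPM and SLC2A1 from 123 ± 12.9 to 359 ± 50.3 CPM. NDRG1, a stress-responsive gene, rose from 179 ± 24.2 to 608 ± 84.0 CPM (log2 1.76 ± 0.11). The enzymes PFKP (1.27), ENO2 (1.23), HK2 (1.10) and LDHA (0.82) rose as did ADM (0.81) and VEGFA (0.64), genes of vasoactive and angiogenic peptides. GAPDH had a log2 difference of 0.08 and DDIT4, which encodes an inhibitor of mTOR, -0.53 with 50.3 and 34.9 CPM. Of 40 ribosome biogenesis genes, 13 rose and none fell (median 0.52). POLR3G, an RNA polymerase III subunit gene, led with 25.6 and 62.1 CPM (log2 1.28 ± 0.13), followed by PNO1 (0.98) and the helicase gene DDX21 (0.94), and nucleolin (NCL) rose by 0.62. That count depended on the setting, with 24 without title run 1 and 7 on library totals. Of 38 cytosolic ribosomal protein genes 0 were called by edgeR or DESeq2 and 0 had an unadjusted p under 0.05, with log2 differences from -0.34 to 0.27 and a median of -0.02.

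Among genes that FOXO factors or growth factor withdrawal induce, falls outnumbered rises. Of 27 tested, 8 fell and 3 rose, against 4.58% and 4.71% of all genes tested, with a median log2 difference of -0.29. TXNIP, which encodes a thioredoxin-binding arrestin that limits glucose uptake, was at 64.2, 65.1, 67.6, 71.8 and 78.9 CPM under AII and at 21.3, 19.2, 22.1 and 25.3 CPM under AII + EGF. Its log2 difference was -1.66 ± 0.09, with a wide gap between the groups. DEPP1 fell by 1.46 ± 0.14, YPEL3 by 1.22 ± 0.11, SESN3, the gene of a sestrin, by 1.07 ± 0.13 and FOXO4 by 1.02 ± 0.09. PIK3IP1, an inhibitor gene of PI3 kinase, fell from 7.39 to 3.94 CPM. The members that rose were ARRDC4, a relative of TXNIP, from 57.5 to 140 CPM, GADD45A, a DNA damage response gene, by 0.78 and ARRDC3 by 0.74. The cell cycle inhibitor gene CDKN1B had 87.4 and 60.9 CPM (log2 -0.52, under the fold minimum), FOXO1 13.6 and 17.6 CPM and FOXO3 174 and 146 CPM.

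**Figure D3:**
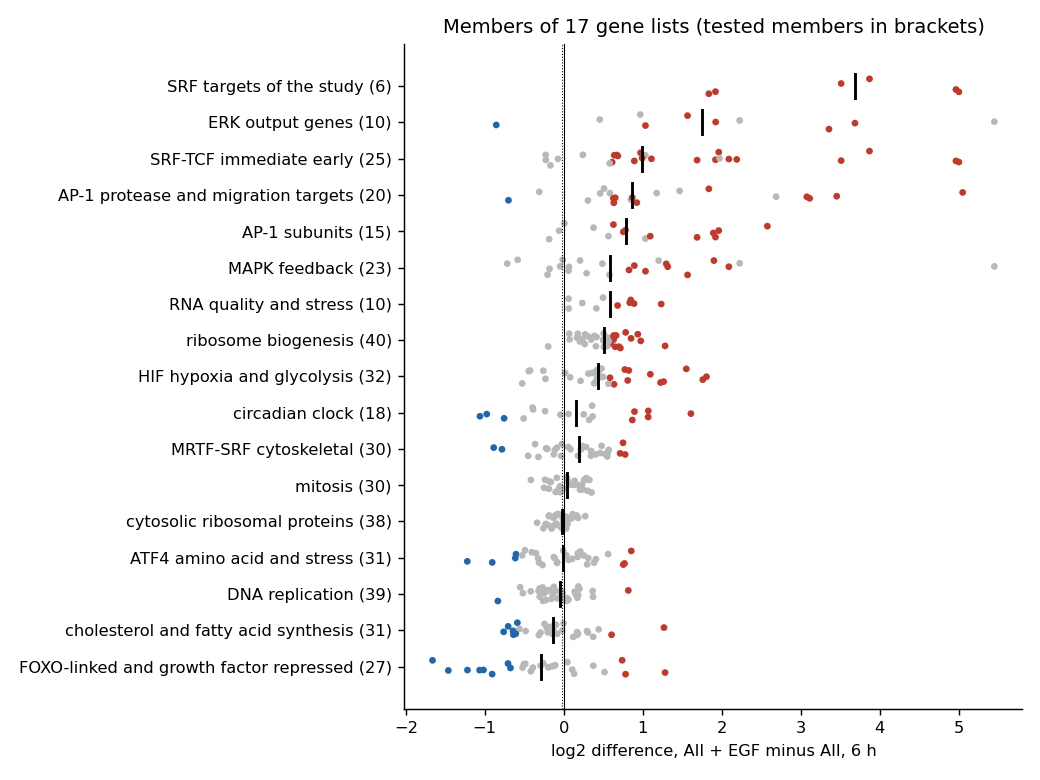
Log2 differences (AII + EGF minus AII, 6 h) of the tested members of 17 gene lists, 1 point per gene, red for a called rise, blue for a called fall and grey for the rest. Black bars are the medians of the lists and the dotted line the median of all genes tested (-0.02). The lists run from the 6 SRF targets at 3.69 to the FOXO-linked list at -0.29.

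The largest falls of single genes were smaller than the largest rises. ZFP14, a zinc finger gene (ENSG00000142065), was at 4.92 to 7.19 CPM under AII and 1.16 to 1.46 CPM under AII + EGF (log2 -2.26 ± 0.17). MAP2K6, which encodes a kinase that activates p38, fell from 6.19 ± 0.946 to 1.31 ± 0.224 CPM (log2 -2.24 ± 0.18). NTHL1, a DNA glycosylase gene, fell from 14.1 to 3.27 CPM and KBTBD7, a ubiquitin ligase adaptor gene, from 10.6 to 2.52 CPM. BMF, which encodes a proapoptotic BCL2 family protein, was at 32.4, 33.9, 32.9, 30.2 and 38.97 CPM under AII and at 8.17, 9.73, 7.36 and 8.29 CPM under AII + EGF. The next falls were ASB11 (-1.96), FAXDC2 (-1.93), OSTN (-1.85), UNC5C, a netrin receptor gene (-1.82), PKP3, a desmosomal plakophilin gene (-1.76), SMOC1 (-1.72) and NUDT14 (-1.67). All 12 had no overlap between groups, as the choice of named genes required. The falls are relative to AII, not to control. In the scaling of the 33 libraries described below, OSTN had 0.763 to 2.07 CPM in control, 5.46 to 10.3 under AII and 1.78 to 2.89 under AII + EGF. ASB11 had 10.0 to 13.9, 18.6 to 26.1 and 4.37 to 6.78 CPM, and BMF 33.5 to 36.1, 31.2 to 40.5 and 7.69 to 10.0 CPM, in the same order.

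Other pathways were divided or had few calls, where 9.29% of all genes tested were called. The clock genes had 5 rises and 3 falls among 18. NPAS2 (log2 1.61), CRY1 (1.07), BHLHE40 (1.07), NFIL3 (0.90) and BHLHE41 (0.87) rose, and the PAR bZIP genes DBP (-1.06) and TEF (-0.76) and NR1D2 (-0.98) fell, while PER1 was at -0.04. Among 24 genes of TGF-beta and BMP signalling ID1 (1.28), ID4 (1.05) and the receptor gene TGFBR2 (0.71) rose together with TGFB1, and the inhibitory SMAD6 (-1.08) and ID3 (-0.87) fell. Wnt effectors TCF7 (1.24) and LEF1 (0.77) and the Notch feedback gene NRARP (0.88) rose, and HEYL (-0.69) and NKD1 (-0.68) fell, of 20 tested. In the cholesterol list 2 genes rose, with INSIG1 at 387 and 932 CPM, and 6 fell, among them MVK (-0.76), FADS2 (-0.70) and PMVK (-0.64). Amino acid supply and stress genes under ATF4 had 3 rises, led by SLC7A5 (0.86), and 4 falls, led by ALDH1L2 (-1.22), of 31, and of 20 aminoacyl-tRNA synthetases only QARS1 was called, with a fall of 0.68.

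The calls among cell division genes are to be read beside the 9.29% of all genes tested that were called. Of 30 mitosis genes edgeR and DESeq2 called 0, 10 had an unadjusted p under 0.05, and the log2 differences ranged from -0.42 to 0.35. Of 39 replication genes RRM2 rose by 0.82 and CDT1 fell by 0.83. Among 22 G1 genes the CDK inhibitor gene CDKN1A rose from 140 to 251 CPM and RBL2, a pocket protein gene, fell from 43.1 to 23.1 CPM. For the unfolded protein response (23 tested, median 0.12) edgeR called 0 genes, DESeq2 1, and 15 had an unadjusted p under 0.05. For the nuclear-encoded respiratory chain (33 tested, median 0.00) both called 0 and 11 had an unadjusted p under 0.05. Of 10 genes chosen as signs of stress and RNA quality 5 rose, all heat shock genes: HSPH1 by 1.23, HSPA1A by 0.89, HSPE1 by 0.85, HSPA1B by 0.84 and HSPD1 by 0.68. HSPA1A and HSPA1B are near-identical, so their separate values are uncertain, and the nuclear RNAs MALAT1 (0.06) and NEAT1 (0.41) did not pass the test. The part of the heat shock rise in the other differences was not tested.

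The label of the cells was checked against markers. Of 11 markers of the HEK293 lineage all were tested, and their summed level was 3492 to 4538 CPM under AII and 8017 to 9861 CPM under AII + EGF. NEFM, a neurofilament gene that HEK293 cells express, made up most of it, at 2508 to 3391.5 CPM and 7054 to 8916 CPM (log2 1.45 ± 0.13). Of 10 fibroblast and smooth muscle markers 5 were tested, with sums of 37.8 to 44.6 and 23.7 to 30.9 CPM, and COL3A1 fell from 18.1 to 8.32 CPM. Markers of endothelium (2 of 6 tested), leukocytes (1 of 6) and proximal tubule (5 of 8) summed to at most 8.81 CPM in any of the 9 libraries, and CD3E, SLC22A6 and SLC22A8 were at 0 counts while CDH5, PTPRC, COL1A2 and SLC34A1 had at most 1. Of the tested members of these 3 lists edgeR called 0, and 1, 0 and 4 had an unadjusted p under 0.05.

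The 5 motifs marked in the promoters above were counted in windows from 250 bases before to 50 after the start, on both strands, for the 11171 of 16778 tested genes with a RefSeq window. They were the CArG box of SRF, the EGR site GCGGGGGCG or GCGTGGGCG, the AP-1 site TGACTCA, the CRE TGACGTCA and the CIC octamers TGAATGAA and TGAATGGA. None of these motifs contains another, but CIC octamers can overlap each other, as in VGF. An EGR site occurred in 12.3% of all, in 22.9% of the 581 called rises with a window and in 13.5% of the 584 falls. AP-1 sites occurred in 4.78%, 8.61% and 3.77%, CIC octamers in 2.55%, 3.96% and 2.23%, CArG boxes in 1.54%, 2.24% and 2.05%, and CREs in 3.75%, 4.65% and 2.05%, in the same order. Among the 34 genes with a window that rose at least 4-fold the shares were 29.4% for EGR sites, 11.8% each for AP-1, CRE and CIC, and 5.88% for CArG boxes, which is 10, 4, 4, 4 and 2 genes. Genes had on average 1.46 windows in all, 1.61 among rises and 1.42 among falls, so more than 1 start was searched for many. These are counts of letters and were not tested.

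What EGF did without AII was taken from libraries that share none with the comparison above, 3 labelled EGF and 3 labelled control at 6 h. They were fitted with 33 libraries of all 8 groups that were free of near-identical pairs and of the last title runs. Of 19369 genes tested 381 were called (1.97%), 306 higher and 75 lower, and 121 were called in the 40 libraries that lack only the near-identical pairs. Of the 381, 315 were also among the 1558 genes called for EGF on top of AII, and all 315 had the same direction. That is 82.7% of the 381 EGF-alone calls and 20.2% of the calls with AII. Of the 1558, 1530 (98.2%) had the same sign in both. That share was not computed over all genes tested, where the differences also correlated (Pearson r = 0.724 across 16778 genes). Across the 1558 genes the slope through the origin of the log2 difference with AII on that without AII was 1.32 (Pearson r = 0.895), with 1.30, 1.26 and 1.402 in title runs 1, 4 and 5. It was 1.09 across the 381 genes called for EGF alone and 0.976 across all 16778 genes, so its value depended on which comparison chose the genes. Genes are not independent replicates, and these are descriptions.

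**Figure D4:**
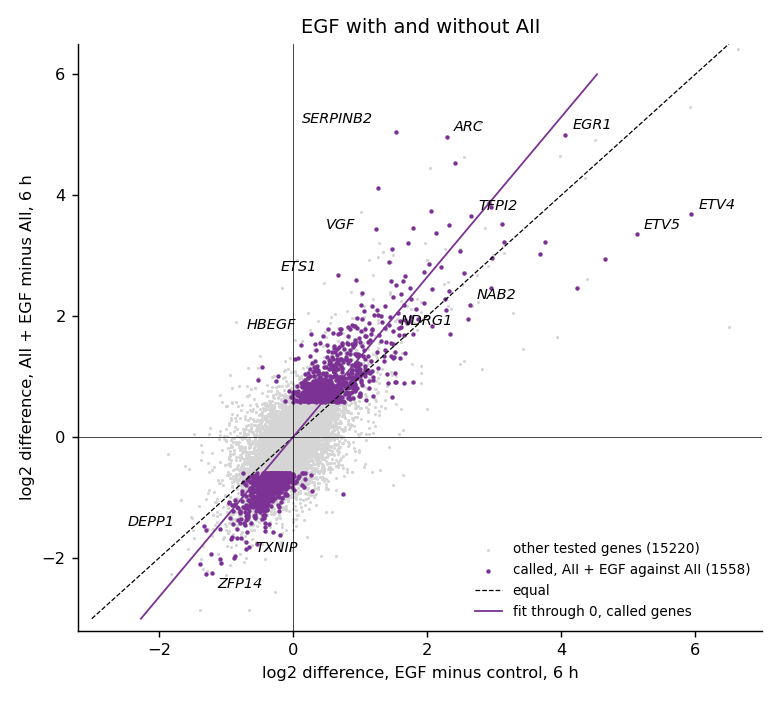
Log2 difference made by EGF on top of AII at 6 h (vertical) against that made by EGF without AII (horizontal), 1 point per gene, with the 1558 called genes in purple. The dashed line marks equality and the purple line the slope of 1.32 through the origin, with ARC and SERPINB2 above both lines and ETV4 and ETV5 below.

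Whether the effect of EGF differed with AII present was tested as an interaction in the 33 libraries, where 90 genes were called (0.465% of 19369), 44 with a positive and 46 with a negative term, and 2155 had an unadjusted p under 0.05. Among called genes the largest positive term was that of ARC, whose mean was 5.89 CPM in control, 28.98 under EGF, 7.71 under AII and 242 under AII + EGF in this scaling. The 4 AII + EGF libraries (219 to 262 CPM) lay above the 3 EGF libraries (27.2 to 30.4 CPM), and the term was 2.68 ± 0.19 (adjusted p = 6.75e-11). VGF followed with 1.12, 2.65, 1.25 and 13.9 CPM in the same order (2.22 ± 0.34). ETS1, a transcription factor gene, had 0.539, 0.868, 0.897 and 5.83 CPM (2.03, adjusted p = 0.00967) and CBFA2T3, a corepressor gene, 0.897, 2.94, 0.973 and 9.09 CPM (1.52). HBEGF had 3.40, 4.62, 2.95 and 9.40 CPM, and its term was 1.23 ± 0.20. In each of these genes the AII + EGF mean was the highest of the 4 groups. SMN1 was also called (1.64), but its near-identical copy SMN2 makes its counts uncertain.

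Negative terms were of more than one kind. ETV5 had 0.918 CPM in control, 32.5 under EGF, 7.92 under AII and 81.5 under AII + EGF. Its level was highest with both, but its fold over AII was smaller than that of EGF over control, which gives a term of -1.76 ± 0.27 (adjusted p = 4.41e-04). ETV4 showed the same order (0.0976, 6.41, 1.28 and 16.5 CPM), with a term of -2.24 that was not called (adjusted p = 0.0221). Other negative terms belonged to genes that EGF lowered in the presence of AII. PKP3, with 26.9, 18.6, 26.2 and 7.79 CPM, had a term of -1.22, FAT4, an atypical cadherin gene, with 15.5, 12.6, 16.1 and 5.47 CPM, had -1.26, and TSC22D3, with 3.63, 3.18, 5.68 and 1.86 CPM, had -1.42. THRB, the thyroid hormone receptor beta gene, stood at 2.47, 2.998, 5.77 and 3.12 CPM (-1.16). The interaction terms of EGR1 (0.95, adjusted p = 0.0628), SERPINB2 (3.53, adjusted p = 0.0132), TXNIP (-0.87, adjusted p = 0.0119) and AGTR1 (0.50, adjusted p = 0.106) were not called.

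The interaction calls rested on few libraries. At 6 h title run 1 contributes AII and AII + EGF libraries but no control or EGF library to this fit, and without it 19 genes were called, 18 of them among the 90 with the same direction. ARC, VGF, CBFA2T3 and TSC22D3 kept their call there, whereas ETV5 (adjusted p = 0.0119), PKP3 (0.0112), ETS1 (0.0225), SMN1 (0.0243), THRB (0.0251) and FAT4 (0.0831) did not. When 1 of the 15 libraries was left out in turn, the call was lost in 13 of 15 fits for ETS1, 7 for FAT4, 6 for TSC22D3 and 4 for SMN1, and in 0 for the other 6 genes. Leaving out EGF replicate 4 or 5 gave 50 calls and leaving out control replicate 3 or EGF replicate 3 gave 51. In those 40 libraries edgeR called 0 genes, the term of ARC was 0.85, and 691 had an unadjusted p under 0.05.

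**Figure D5:**
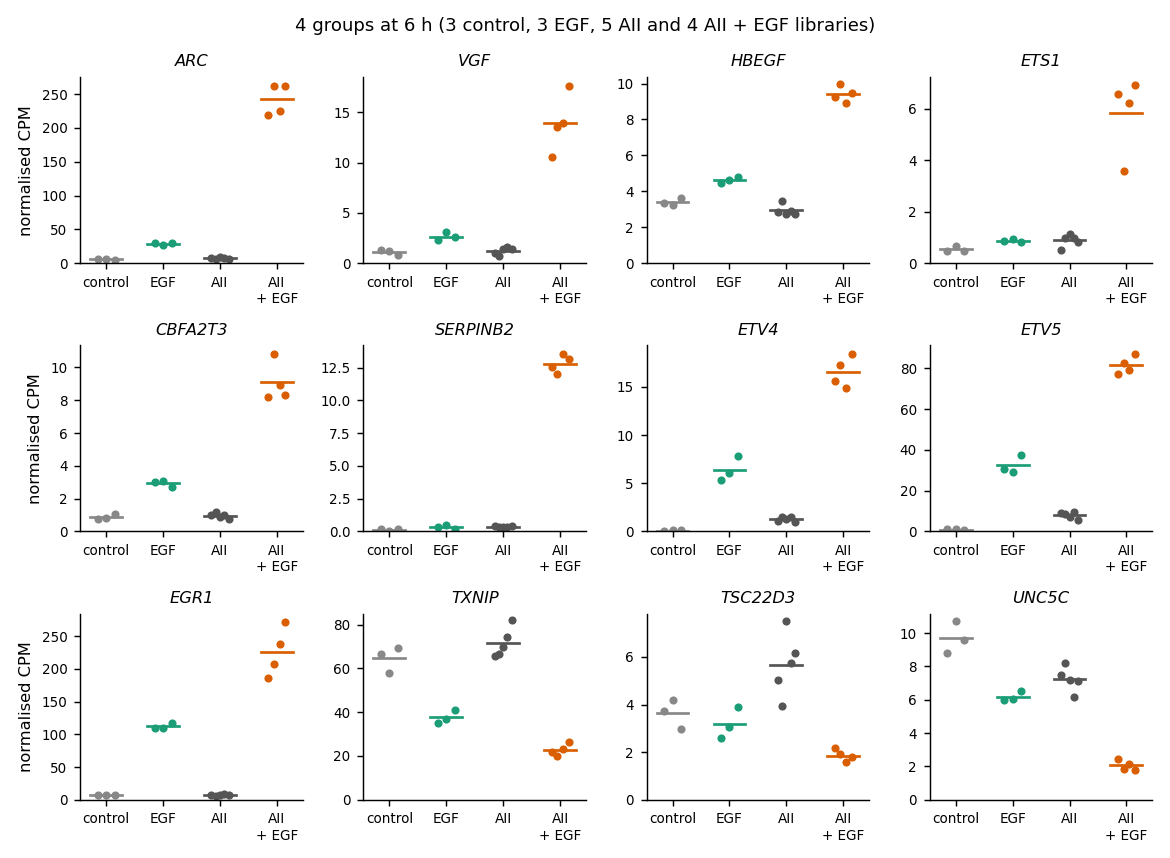
Normalised CPM of 12 genes in each library of the 4 groups at 6 h (3 control, 3 EGF, 5 AII and 4 AII + EGF), with the group mean as a line and every axis starting at 0. ARC, VGF, HBEGF, ETS1, CBFA2T3, SERPINB2, ETV4, ETV5 and EGR1 have their highest means under AII + EGF. The means of these genes are also higher under EGF than in control. TXNIP, TSC22D3 and UNC5C are lowest under AII + EGF.

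The same comparison was made at 24 h in other libraries, 5 AII + EGF and 4 AII. Of 19369 genes 431 were called (2.23%), 241 higher and 190 lower, against 187 in the 40 libraries. Of the 1558 calls at 6 h, 161 were called again at 24 h (10.3% of the 6 h calls and 37.4% of the 24 h calls), 138 of them in the same direction, 97 higher and 41 lower. For 9 genes a rise at 6 h stood against a fall at 24 h, and for 14 the reverse. ETV5 (log2 3.83 at 24 h), ARC (2.75) and ETV4 (6.18) were called at 24 h, the last over AII libraries at 0 to 0.188 CPM, so that its fold is not well determined. VGF (2.81) and MMP10 (2.66) stayed below 5 CPM at 24 h and were not called. ARC had 7.29 ± 0.510 CPM under AII and 48.97 ± 9.65 CPM under AII + EGF at that time, against 242 CPM at 6 h. EGR1 had a log2 difference of 1.66 at 24 h against 5.003 at 6 h, and SERPINB2, not called at 24 h, 1.72 against 5.05, with 0.655 CPM under AII + EGF. FOS had -0.26 at 24 h (adjusted p = 0.261), and SLC2A1, NPAS2 and BHLHE40 lay between -0.15 and 0.24. AGTR1 was higher at both times, with 8023 and 14026 CPM at 24 h (log2 0.81). TXNIP turned in sign without a call, from 242 to 340.4 CPM at 24 h (log2 0.49, adjusted p = 0.00392). A change of the differences over time was not tested.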

How the data were processed

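Poly(A) RNA was sequenced by a service company. The authors mapped reads to hg38 with HISAT2 2.1.0, assigned them to Ensembl genes with featureCounts and deposited the raw count of each gene and library. Whether counting used strand, and how reads with several positions were treated, are not given in the sources used here, so overlapping and paralogous genes are uncertain. The table lists 60610 genes, of which 36022 had a count in the 9 libraries. Groups were read from the labels, and replicate numbers follow the order of deposition.

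The members and gene lists were chosen with earlier results of these data known. The 9 libraries were fitted in edgeR 4.0.16 (R 4.3.3) after filterByExpr and TMM scaling, with quasi-likelihood tests, Benjamini-Hochberg adjustment and no covariates. The effects of EGF alone, the interaction and the 24 h comparison came from 1 fit over 33 libraries with the same thresholds, the highest of the 4 group means counting for the interaction. Those 33 exclude the 8 libraries of 4 pairs (of 1128) that differed by less than sampling noise (chi-square per degree of freedom under 1) and title runs 7 and 8. Depth sets the precision of low genes, where differences of a few counts weigh heavily.

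Named genes were the 12 largest rises and falls without overlap among called genes whose symbol has no dot or LINC prefix, all ERK output genes and SRF targets of the study, AGTR1, EGFR and HBEGF, up to 4 called members of each other list, up to 5 interaction genes in each direction, and the 5 called non-coding or clone-named genes with the largest difference. Other list members named were chosen after their values were seen. Tested on simulated data (16423 genes), all 67 genes changed 2-fold and all 66 changed 4-fold were called. Of 67 changed 1.5-fold 92.5% passed the adjusted p and 37 were called, and 0 unchanged genes were called. The changed genes were drawn only from those well above the abundance minimum under AII, so recovery of lower genes was not tried. Differences between title runs were not simulated. Alternatives were DESeq2 1.42.0, RLE factors, library totals, other filters and thresholds, other sets of libraries, title run as a block and leaving out each library. Leaving out title run 1 for the interaction and the slope, and DESeq2 on all 12 labelled libraries, were added after seeing the data. 1 gene is not reported here.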

Additional observations from a re-analysis of the deposited data

Results flagged for a closer look

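In 14 of 216 tests of a named gene within a group (6.48%, where chance alone gives about 1 in 20), 1 library stood apart from the others of its group. The value is the gap to the nearest library as a share of the whole range of the group. Among the AII libraries it was 0.764 for ISM1 (replicate 2 highest), 0.746 for SPRY4 (replicate 1 highest), 0.810 for HBEGF (replicate 2 highest), 0.845 for DUSP5 (replicate 2 lowest), 0.908 for BATF3 (replicate 3 highest), 0.828 for TNFRSF12A (replicate 5 lowest), 0.793 for ID1 (replicate 2 lowest) and 0.881 for HSPA1B (replicate 5 lowest). Among the AII + EGF libraries it was 0.976 for AGTR1 (replicate 2 lowest), 0.877 for ACTG1 (replicate 5 highest), 0.947 for SLC2A3, 0.851 for NDRG1 and 0.832 for BHLHE40 (replicate 3 lowest in each), and 0.878 for RBL2 (replicate 5 lowest). For each of these genes the groups still did not overlap.

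The effect of EGF differed between cells with and without AII, by the interaction term of edgeR's quasi-likelihood test, for 19 named genes in the 33 libraries. For the 10 of them that were refitted in other settings, the calls were lost in the sets of 40 and 48 libraries, where the term of ARC was 0.85 and 0.45. ETS1 lost its call in 13 of 15 fits with 1 library left out, FAT4 in 7, TSC22D3 in 6 and SMN1 in 4. The log2 terms above 0 were 2.68 for ARC, 2.22 for VGF, 2.03 for ETS1, 1.64 for SMN1, 1.52 for CBFA2T3, 1.23 for HBEGF, 1.12 for NEFM, 0.88 for ID4 and 0.64 for NRARP. Those below 0 were -1.76 for ETV5, -1.42 for TSC22D3, -1.26 for FAT4, -1.22 for PKP3, -1.16 for UNC5C, -1.16 for THRB, -1.01 for SMOC1, -0.91 for BMF, -0.88 for COL3A1 and -0.61 for TPM1.

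Of the libraries that the comparison did not use, the one labelled AII + EGF replicate 4 lay at 0.712 and the one labelled AII replicate 6 at 0.858 on the scale from AII (0) to AII + EGF (1).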

How the results depend on the processing

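The count of genes that differed between AII + EGF and AII at 6 h (1558) stayed within 1.5 times with DESeq2 (1592, of which 1511 were shared), RLE factors, library totals, no filter, the filter of the study, an adjusted p under 0.05, no abundance minimum, 33 or 45 libraries, AII + EGF replicate 4 added, without title run 1 (1827) and with title run as a block (1689, 1530 shared). It was 3645 without a fold minimum, 311 with all 48 libraries and 0 with the 12 labelled libraries, and 1417 to 1616 when 1 library was left out, with 1193 genes called in the full and all 9 reduced fits. That setting differs only by the 3 added libraries. EGF alone gave 121 calls in 40 libraries that lack only the near-identical pairs (301 to 333 with 1 library left out, all other settings within 1.5 times of 381). At 24 h there were 1084 calls without a fold minimum, 269 with all 48 libraries, 187 with the 40 and 368 to 499 with 1 library left out. The interaction gave 179 calls at an adjusted p under 0.05, 0 with all 48 libraries (edgeR, 902 with an unadjusted p under 0.05), 0 with the 40, 19 without title run 1 and 50 to 79 with 1 library left out, and the term of VGF turned to -0.13 with all 48. The slope was 0.976 over all genes, 1.09 over genes called for EGF alone, 0.836 with all labelled libraries and 1.30 to 1.34 with 1 library left out. The gene lists held 134 calls among 593 genes and 0 with the 12 labelled libraries. The cause of the other changes was not tested.

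Of 108 named genes every one kept its direction and its side of the threshold with DESeq2, RLE factors, library totals, 33 libraries and the block. Without title run 1 NTSR1 and LINC00659 lost their call, as did LINC00659 once and ACTA2 3 times with 1 library left out (adjusted p 0.0106 to 0.0190). With the 12 labelled libraries 104 lost it and kept their direction. No analysis paired by replicate number was possible because these numbers follow the order of deposition and pair no libraries. The title run could serve as a block, with the count given above.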
